A study of Mus musculus with 2 samples.

Results

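Spermatogonia with few transcripts of both the GFRA1-type and the KIT-type marker genes were examined in single-cell RNA-seq libraries of mouse testes. Germ cells were taken among cells of 10000 or more UMIs (unique molecular identifiers, each standing for 1 captured transcript), with 750 or more genes and no more than 10% mitochondrial UMIs. The summed Ddx4 and Dazl UMIs of a germ cell reached 4, and 3 per 10000 UMIs, while those of the somatic genes Clu, Acta2, Dlk1 and Dcn stayed under 5 per 10000. Low-both cells were the germ cells with fewer than 5 UMIs of Gfra1, Ret and Lhx1 together and fewer than 5 UMIs of Kit and Stra8 together. The rule found 144 low-both cells among 809 such germ cells, 10590 cells of at least 10000 UMIs and 13789 cells kept in all. The germ cells past the limit for the first set only are called GFRA1-high (366 cells), those past the limit for the second set only KIT-high (182 cells), and those past both limits both-high (117 cells). The classes were thus chosen by the measured UMIs of these genes, whose levels are no result here.

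The study compared the testes of 1 control mouse with those of 1 Brca1 vKO mouse, both at postnatal day 7 (PD7). In Brca1 vKO mice the Brca1 gene, whose product acts in DNA repair by homologous recombination, is carried as 1 floxed and 1 null allele, and the floxed allele is deleted in germ cells by a Cre driven by the germ cell gene Vasa (Ddx4), so that somatic cells keep 1 working allele. Controls were littermates, whose alleles are not given for this library, and the strain is not given. The single-cell suspension came from enzyme digestion with collagenase IV and TrypLE, with no sorting. There was 1 library per genotype, so the genotypes were compared without a test, and every interval printed covers counting error at 95% only.

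In the mouse testis, spermatogonial stem cells express the receptor for GDNF, made of GFRA1 and RET. Their progeny first become progenitors, which are still undifferentiated but prepared for differentiation, and then respond to retinoic acid by switching on the KIT receptor and STRA8. SOX3, NEUROG3 and the retinoic acid receptor RARG are known from progenitors, NANOS3 is an RNA-binding protein of undifferentiated spermatogonia, and EGR4 is a transcription factor of germ cells.

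The control library held 120568700 UMIs over 5812 barcodes and the Brca1 vKO library 165062097 over 9456, and 16 barcodes occurred in both. The control library gave 131 low-both cells with a median of 36157 UMIs (10060 to 105806) and the Brca1 vKO library 13 with a median of 16966 (10466 to 53612). The medians of GFRA1-high cells were 43540 and 35296 UMIs and those of KIT-high cells 50160 and 40995. Under 20000 UMIs were 31 of the 131 control and 8 of the 13 Brca1 vKO low-both cells. The median mitochondrial share was 5.67% for control and 2.52% for Brca1 vKO low-both cells, and 16 and 4 of them were under 1%, against 1 of 230 GFRA1-high, 7 of 175 KIT-high and 0 of 74 both-high cells of the control. Of Brca1 vKO GFRA1-high cells 0 of 136 were under 1%, with a median share of 6.11% and a lowest share of 3.86%. Comparisons of these classes within the Brca1 vKO library thus set cells of unlike mitochondrial share and depth side by side. Genes shared by spermatogonia summed to 3388 CPM (UMIs per 1000000) in control low-both, 3191 CPM in GFRA1-high and 3041 CPM in KIT-high cells, and stromal, myoid, Leydig and endothelial genes to 103, 15.4, 5.26 and 41.9 CPM in control low-both cells, beside 89.2, 23.0, 6.36 and 80.4 CPM in GFRA1-high cells. Doublets were kept, and Scrublet, a doublet caller, marked 1 control low-both cell and no Brca1 vKO one.

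Brca1 itself was at 46.7 CPM (40.8 to 53.3) in control low-both cells and at 19.2 CPM (6.22 to 44.7, 5 UMIs) in Brca1 vKO low-both cells. In GFRA1-high cells it was at 75.1 and 43.9 CPM. Where in the transcript these UMIs lie is not known from the tables, so the levels do not check the deletion.

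Low-both cells were a smaller part of the germ cells in the Brca1 vKO than in the control library. Of the control germ cells 131 of 610 were low-both, or 21.5% (18.3 to 24.95% by the exact Clopper-Pearson method). Of the Brca1 vKO germ cells 13 of 199 were, or 6.53% (3.52 to 10.9%). The ratio of the shares was 0.304 (0.158 to 0.539). KIT-high cells went the same way, with a ratio of 0.123 (0.0486 to 0.258), while GFRA1-high cells had a ratio of 1.81 (1.46 to 2.25) and both-high cells one of 1.78 (1.19 to 2.63). As a share of all cells of at least 10000 UMIs, the low-both values were 3.25% and 0.198%, with a ratio of 0.0611 (0.0317 to 0.108). This denominator moves with the somatic cells recovered, so it does not give cell numbers per testis.

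**Figure D1:**
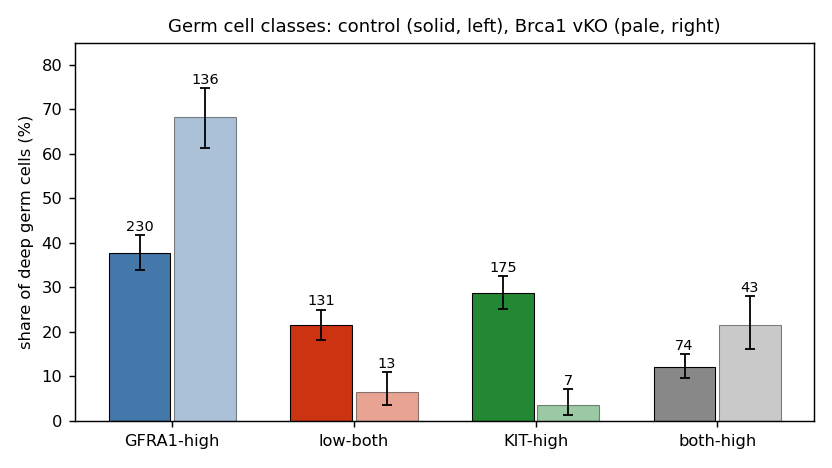
Share of each class among germ cells of at least 10000 UMIs (y axis, %), control in solid bars and Brca1 vKO in pale bars, with exact 95% Clopper-Pearson intervals (counting error only) and the number of cells above each bar. Low-both cells take 21.5% of control and 6.53% of Brca1 vKO germ cells.

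The low-both share depended on the mitochondrial limit and on depth. With at most 5% mitochondrial UMIs, 49 of 192 control germ cells (25.5%) and 10 of 45 Brca1 vKO ones (22.2%) were low-both, so that the ratio became 0.871 (0.393 to 1.74). With at least 20000 UMIs the shares were 17.9% (100 of 560) and 2.72% (5 of 184), and their ratio 0.152. When each GFRA1-high cell was reduced at random to 10000 UMIs, 51.3% of the control and 30.9% of the Brca1 vKO cells would have met the low-both rule; at 20000 UMIs, 23.3% and 6.15% would have. Of control KIT-high cells, 47.4% would have met it at 10000 UMIs and 26.8% at 20000.

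All 4 progenitor markers were higher per UMI in control low-both cells than in GFRA1-high cells, and Sox3 was shared with KIT-high cells. Nanos3 was only slightly higher, and in some alternative settings its interval held 1. None of these genes was used in the rule. Of the 4 markers, Sox3 and Rarg were higher by over 1 on log2(CPM + 10) than in GFRA1-high cells, where 0.383% of 12018 genes were. Nanos3 and Egr4 were higher by over 1 than in KIT-high cells, where 1.49% of 11717 genes were.

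Sox3 (chromosome X:60891366-60893430, minus strand of mm10), a transcription factor of the SOX family, was at 69.9 CPM (62.6 to 77.8; 332 UMIs) in control low-both cells, 26.0 CPM (23.0 to 29.2) in GFRA1-high cells, 70.3 CPM (64.9 to 76.1) in KIT-high cells and 17.5 CPM (13.7 to 22.1) in both-high cells. The ratio to GFRA1-high cells was 2.69 (2.29 to 3.17) and that to KIT-high cells 0.994 (0.867 to 1.14). Sox3 thus separated low-both from GFRA1-high cells and not from KIT-high cells. In Brca1 vKO low-both cells it was at 26.8 CPM (10.8 to 55.3), from 7 UMIs in 3 of 13 cells, and in Brca1 vKO GFRA1-high cells at 8.39 CPM (6.07 to 11.3). The ratio between these classes was 3.20 (1.21 to 7.17), again above 1, while both levels were below those of the control.

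Nanos3 (8:84173731-84185217, minus strand) had the reverse order. It was at 75.6 CPM (68.0 to 83.8) in control low-both, 66.2 CPM (61.4 to 71.2) in GFRA1-high, 12.0 CPM (9.83 to 14.5) in KIT-high and 41.4 CPM (35.4 to 48.2) in both-high cells. Low-both cells stood 6.29 times (5.05 to 7.89) above KIT-high cells and 1.14 times (1.0 to 1.30) above GFRA1-high cells. In the Brca1 vKO library, Nanos3 was at 38.3 CPM (18.4 to 70.5) in low-both and 39.0 CPM (33.8 to 44.8) in GFRA1-high cells, and the ratio of 0.982 had an interval from 0.464 to 1.84.

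Egr4 (6:85511121-85513589, minus strand) had its highest level in low-both cells in both libraries. In the control it was at 267 CPM (252 to 282) in low-both, 165 CPM (158 to 173) in GFRA1-high, 72.4 CPM (66.9 to 78.2) in KIT-high and 147 CPM (135 to 159) in both-high cells. In Brca1 vKO cells it was at 306 CPM (243 to 381), 191 CPM (179 to 203), 119 CPM (81.2 to 167) and 182 CPM (163 to 202) in the same order. Low-both over GFRA1-high cells gave a ratio of 1.61 in each library (1.5 to 1.73 for control, 1.26 to 2.02 for Brca1 vKO).

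Rarg (15:102234938-102257517, minus strand) was at 30.7 CPM (26.0 to 36.1) in control low-both cells and lower in each other class, at 9.81 CPM (8.03 to 11.9) in GFRA1-high, 14.8 CPM (12.4 to 17.6) in KIT-high and 8.63 CPM (6.01 to 12.0) in both-high cells. Low-both cells stood 3.13 times (2.42 to 4.06) above GFRA1-high and 2.07 times (1.62 to 2.64) above KIT-high cells. Only 2 UMIs of Rarg, both in 1 cell, were counted in Brca1 vKO low-both cells (7.66 CPM, 0.928 to 27.7), too few to place them against the 4.68 CPM of Brca1 vKO GFRA1-high cells.

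The interval of low-both cells overlapped none of the other control classes for Egr4 and Rarg, that of KIT-high cells for Sox3 and that of GFRA1-high cells for Nanos3.

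**Figure D2:**
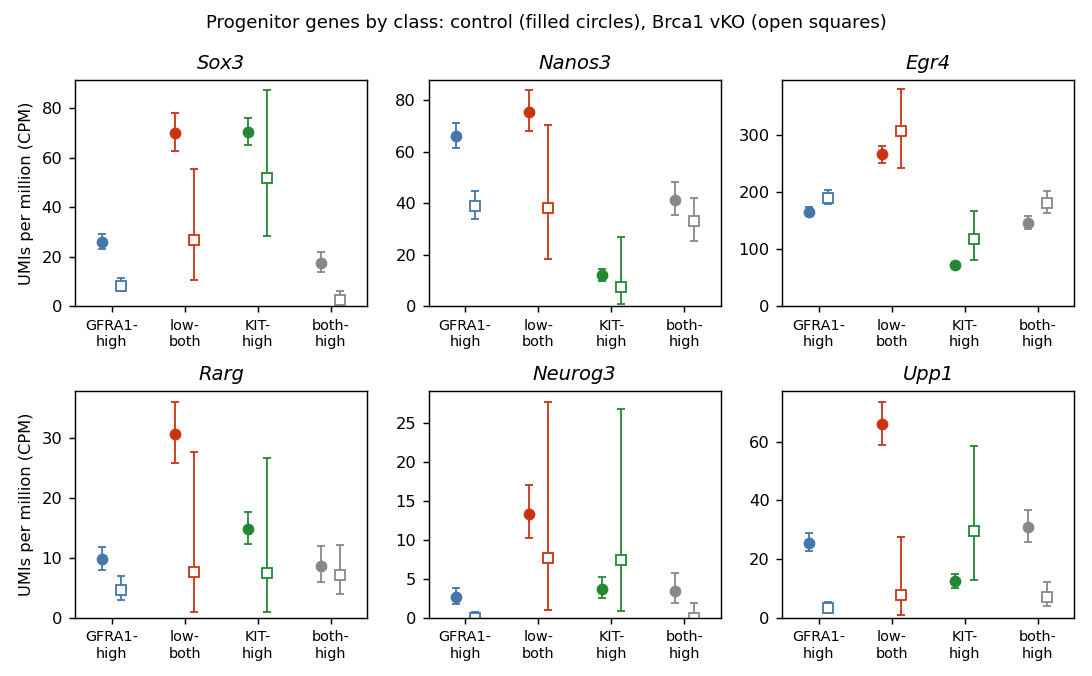
Level in CPM (y axis, from 0) of 6 progenitor genes in the summed UMIs of each class, control as filled circles and Brca1 vKO as open squares, with exact 95% Poisson intervals (counting error only). In the control, Egr4, Rarg, Neurog3 and Upp1 are highest in low-both cells, Sox3 is level with KIT-high cells and Nanos3 lies just above GFRA1-high cells.

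In single cells the markers overlapped widely between classes. With each cell thinned to 10000 UMIs, at least 2 of the 4 markers were detected in 65.6% of control low-both cells, 40.4% of GFRA1-high, 29.1% of KIT-high and 31.1% of both-high cells. The level of free RNA was read from Sertoli-like cells. These held at least 10 UMIs of Sertoli genes and fewer than 4 of Ddx4 and Dazl together. The limit on Ddx4 and Dazl leaves out cells with more free germ cell RNA, so shares read from Sertoli-like cells may be too low. Of the 2040 control Sertoli-like cells (median 19349 UMIs), 0.294% had 2 or more of the markers. In the Brca1 vKO library the shares were 30.8% of 13 low-both cells, 33.1% of GFRA1-high cells and 0.0973% of 4111 Sertoli-like cells (median 17588 UMIs). Without thinning the control shares rose to 89.3% of low-both, 83.5% of GFRA1-high and 82.9% of KIT-high cells.

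Per marker, thinned shares of control low-both cells with a UMI were 37.4% for Sox3, 45.0% for Nanos3, 80.2% for Egr4 and 19.8% for Rarg. The same shares of GFRA1-high cells were 17.4%, 41.7%, 69.1% and 6.52%, and those of Sertoli-like cells 0.490%, 4.46%, 1.37% and 0.441%. The median sum of the 4 markers was 4 UMIs in a thinned low-both cell, 2 in a GFRA1-high cell and 1 in a KIT-high cell.

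Other genes known from progenitors were listed as well, and 9 of the 10 had enough UMIs to compare. Against GFRA1-high cells of the control, 2 were higher by over 1 (Upp1 and Crabp1; 0.383% of all genes were) and 1 lower (Lhx2; 0.890%), with a median log2 difference of 0.71 beside -0.07 over all genes. In the Brca1 vKO library, 7 were compared with GFRA1-high cells and 3 lay above 0, with 1 higher by over 1 (Crabp1; 0.501% of all genes were), 1 lower (Dppa4; 10.6%) and a median of -0.16 beside -0.21 over all genes. Against KIT-high cells of the control, 3 were higher (Upp1, Ddit4 and Dppa4; 1.49% of all genes were) and 1 lower (Crabp1; 1.04%), with a median of 0.76 beside -0.12.

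Upp1 (11:9118103-9136170, plus strand), which encodes uridine phosphorylase, was at 65.9 CPM (58.8 to 73.6) in control low-both cells, 25.5 CPM in GFRA1-high and 12.5 CPM in KIT-high cells. Neurog3 (10:62133090-62134763, plus strand), a basic helix-loop-helix factor used to mark progenitors, was low throughout, at 13.3 CPM (10.2 to 17.0; 63 UMIs in 31 cells), 2.62 CPM (1.74 to 3.78) and 3.74 CPM (2.57 to 5.25). Its ratio to GFRA1-high cells was 5.07 (3.20 to 8.22), although its log2 difference of 0.88 stayed under 1 because of the added 10 CPM. Sohlh1, a transcription factor of spermatogonial differentiation, was at 254 CPM in low-both, 126 CPM in GFRA1-high and 266 CPM in KIT-high cells. Crabp1, which binds retinoic acid in the cytoplasm, was graded at 66.2 CPM in GFRA1-high, 160 CPM in low-both and 363 CPM in KIT-high cells. Lhx2 was almost missing from control low-both cells, at 1.89 CPM (9 UMIs) against 17.0 CPM in GFRA1-high cells. In the Brca1 vKO library it was at 42.1 CPM (21.0 to 75.4) and 38.0 CPM in these classes.

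By sign, most stem cell genes outside the rule lay below GFRA1-high cells and above KIT-high cells in control low-both cells, and fewer were past 1. Of 21 such genes compared, 7 were lower by over 1 than in GFRA1-high cells (0.890% of all genes were) and 1 was higher (0.383%). In all 2 lay above 0, with a median of -0.53 beside -0.07 over all genes. Id4, an inhibitor of basic helix-loop-helix factors, was at 31.4 CPM (26.5 to 36.8) against 82.4 CPM (77.1 to 88.1) in GFRA1-high and 4.64 CPM (3.33 to 6.30) in KIT-high cells. Etv5, a transcription factor induced by GDNF, was at 22.5, 76.5 and 7.48 CPM. Foxc2 was at 6.11, 42.9 and 1.70 CPM. The gene that was higher was Utf1, at 31.6 CPM against 9.81 CPM in GFRA1-high and 14.8 CPM in KIT-high cells. Against KIT-high cells 2 of 13 stem cell genes were higher by over 1 (Id4 and Zbtb16; 1.49% of all genes were) and none lower (1.04%). Of the 13, 9 lay above 0, with a median of 0.48 beside -0.12 over all genes.

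Of 12 differentiation genes outside the rule compared with KIT-high cells, 2 were lower by over 1 (Dnmt3b and Esx1; 1.04% of all genes were) and none higher. In all 11 of the 12 lay below 0, with a median of -0.83 beside -0.12 over all genes. The de novo DNA methyltransferase Dnmt3b was at 46.5 CPM (40.6 to 53.1) in low-both, 32.5 CPM (29.2 to 36.1) in GFRA1-high and 105 CPM (98.7 to 112) in KIT-high cells. Against GFRA1-high cells the median of 11 genes was 0.31, with Lmo1 higher and the cyclin Ccnd2 lower by over 1 (0.383% and 0.890% of all genes were). Lmo1, a LIM-domain cofactor, was at 10.1 CPM in GFRA1-high, 40.8 CPM in low-both and 86.2 CPM in KIT-high cells. Ccnd2 did not follow this order, at 275, 74.3 and 96.2 CPM.

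Of 19 early meiotic genes, none was past 1 against GFRA1-high cells (0.383% of all genes were higher and 0.890% lower). Against KIT-high cells 1 was lower (Dmc1, the meiotic recombinase, at 37.9 against 87.5 CPM; 1.04% of all genes were). Their medians were -0.12 and -0.48, beside -0.07 and -0.12 over all genes.

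Summed cell cycle genes were lower in control low-both cells than in both neighbouring classes, with few single genes past 1. The summed S phase genes were at 4135 CPM in low-both, 5158 CPM in GFRA1-high and 6129 CPM in KIT-high cells, and 40 of 43 genes lay below 0 against GFRA1-high cells, with a median of -0.32 beside -0.07 over all genes. None was past 1 against GFRA1-high cells (0.383% of all genes were higher and 0.890% lower). Against KIT-high cells 3 of these genes were lower by over 1 (Gmnn, Ccne2 and Cdc6; 1.04% of all genes were). The summed G2/M genes were at 8123, 9208 and 9821 CPM, and 41 of 53 lay below 0 against GFRA1-high cells (33 of 53 by the mean of each cell's CPM). Per cell at 10000 UMIs, the median was 39 S phase UMIs in low-both against 44 in GFRA1-high and 61 in KIT-high cells, but 81 G2/M UMIs against 76 and 94, so the lower G2/M level against GFRA1-high cells did not hold for the median cell. Mki67, a proliferation marker, was at 86.5 CPM (78.4 to 95.3) in low-both and 187 CPM (179 to 195) in GFRA1-high cells. In the Brca1 vKO library the S phase sum was 5632 CPM (5348 to 5927) in low-both and 5991 CPM in GFRA1-high cells, and the G2/M sum was 10678 CPM (10285 to 11082) against 9219 CPM, so the G2/M order was not that of the control.

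The control ranks were then taken across all genes. In the control, 46 genes were higher and 107 lower by over 1 in low-both than in GFRA1-high cells, and 174 were higher and 122 lower than in KIT-high cells (58.8% of the called genes higher). The balance against KIT-high cells depended on the setting: a scaling by TMM gave 224 and 85 (72.5% higher), whereas the mean of each cell's CPM gave 142 and 154, a marker limit of 3 UMIs 205 and 243, a mitochondrial limit of 5% 153 and 265, and a pseudocount of 1 CPM 455 and 699. The 8 genes that led the first comparison were Hba-a1, Hbb-bs, Hbb-bt, Hba-a2, Apoe, Pf4, Cxcl2 and Tmsb4x, which are genes of red blood cells and macrophages. Of the UMIs of these 8 genes, 86.6 to 99.2% came from a single barcode each. One control barcode held 72.7% red blood cell UMIs and another 340 UMIs of macrophage genes, where the next low-both cell held 1. Without these 2 barcodes the summed macrophage genes of low-both cells dropped from 74.3 to 2.78 CPM and the red blood cell genes from 2623 to 153 CPM, beside 3.46 and 116 CPM in GFRA1-high cells. With such barcodes taken out of every class, which left 605 of 610 control germ cells, 29 genes were higher and 111 lower than in GFRA1-high cells. Against KIT-high cells the counts were then 154 and 126. The genes named next were ranked again with only the 2 low-both barcodes left out, among the other 129 control low-both cells. This step was added after the data were seen.

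By the smaller of their 2 differences, the 5 genes furthest above both classes were Epb41l4a, Gm16222, Rin2, Lbhd2 and Esr1. Rin2 (2:145675215-145887616, plus strand), an exchange factor for RAB5, was at 183 CPM (171 to 196) in control low-both cells, 74.8 CPM (69.7 to 80.1) in GFRA1-high and 12.7 CPM (10.4 to 15.3) in KIT-high cells. It was detected in 93 of 131 control low-both cells. Epb41l4a, of the band 4.1 family, was at 88.2 CPM (80.0 to 97.1), 26.3 CPM and 17.4 CPM. Esr1, the estrogen receptor alpha, was at 73.7 CPM (66.2 to 81.8), 28.5 CPM and 7.48 CPM, and Lbhd2 at 31.8 CPM (26.9 to 37.3), 8.60 CPM and 7.48 CPM. For Gm16222, 24.9% of the UMIs were in 1 cell. In the Brca1 vKO library, whose cells took no part in this choice, the log2 differences from GFRA1-high cells were 1.17 for Rin2, 1.35 for Epb41l4a, 0.80 for Esr1 and 0.39 for Lbhd2. These rest on 9, 9, 3 and 2 UMIs in Brca1 vKO low-both cells, and Gm16222 had 0 UMIs there. In that library 0.501% of 9182 genes were higher and 10.6% lower by over 1 than in GFRA1-high cells, and 1.46% higher and 5.34% lower of 2059 than in KIT-high cells.

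Lhfpl3 also ranked among the 10 highest over GFRA1-high cells and was higher by over 1 than KIT-high cells too (25.7 against 4.30 and 6.46 CPM), but 56.6% of its UMIs were in 1 cell. The other leading genes were at least as high in KIT-high cells or nearly level with them. Cdk6, a G1 kinase, was at 20.6 CPM in GFRA1-high, 73.1 CPM (65.6 to 81.2) in low-both and 113 CPM in KIT-high cells, and its Brca1 vKO log2 difference from GFRA1-high cells was 1.49 from 8 UMIs. The same order held for Crabp1 and Lmo1. Tmem267 was at 80.4 CPM in low-both, 21.8 CPM in GFRA1-high and 97.3 CPM in KIT-high cells, and it had 0 UMIs in Brca1 vKO low-both cells, which allows up to 11.5 CPM at 3 counts. The long noncoding gene 4930469K13Rik, at the head of this ranking, was level with KIT-high cells (a log2 difference of 0.04), and its Brca1 vKO difference from GFRA1-high cells was -0.41.

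The genes furthest below GFRA1-high cells were Kcnc2, Nefm, Pdzd2, Optn and Chn2. Kcnc2, a voltage-gated potassium channel, was at 92.8 CPM (84.4 to 102) in low-both, 863 CPM (845 to 880) in GFRA1-high and 11.8 CPM (9.63 to 14.3) in KIT-high cells. It had UMIs in 68 of 131 low-both cells. Pdzd2 was at 28.2 CPM in low-both, 172 CPM in GFRA1-high and 27.1 CPM in KIT-high cells. The neurofilament gene Nefm was at 9.26, 87.0 and 1.47 CPM, and the autophagy receptor gene Optn at 8.0, 60.1 and 6.57 CPM. Brca1 vKO log2 differences were -2.53 for Kcnc2, -2.75 for Pdzd2, -0.79 for Nefm, -0.90 for Optn and -1.41 for Chn2, the same sign for each.

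Against KIT-high cells the leading genes were Rin2 (a log2 difference of 3.10), Sdc4 (2.67), Rasgef1b (2.54), Zfp462 (2.48), Glis3 (2.43), Stox2 (2.37) and Esr1 (2.28). Sdc4, a heparan sulfate proteoglycan, was level between low-both (603 CPM) and GFRA1-high cells (590 CPM) and at 86.9 CPM in KIT-high cells. Glis3, a zinc finger factor, was at 607 CPM in low-both, 1087 CPM in GFRA1-high and 106 CPM in KIT-high cells. Stox2 was highest in control low-both cells, at 263 CPM (248 to 278) against 135 and 43.6 CPM. In Brca1 vKO low-both cells Stox2 was level with GFRA1-high cells, with a log2 difference of -0.02. The lowest genes against KIT-high cells were Hist1h2aa (-1.96), Sgcd (-1.96), Gabrg3, Hs6st2 and Gm11961, with Sgcd at 14.1 CPM in low-both and 84.6 CPM in KIT-high cells. In the Brca1 vKO library, which had 7 KIT-high cells, the differences from them were 0.84 for Rin2, 1.36 for Sdc4 and 0.74 for Rasgef1b. Those of Zfp462, Glis3 and Esr1 were 1.56, 0.42 and 0.65, and that of Stox2 turned to -0.75. Sgcd, Gabrg3 and Gm11961 kept their sign (-1.90, -1.51 and -0.45), while Hist1h2aa and Hs6st2 had 0.97 and 0.03.

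Few genes were low in low-both cells alone. Lower by over 1 than in both classes were 3 of 11331 genes (0.0265%), Nrxn3, Slc24a2 and Prickle2, while 29 (0.256%) were higher than in both with all 131 cells. Without the 2 barcodes, 12 of 11289 genes (0.106%) were higher than in both, 11 of them among the 29, and the same 3 were lower. Nrxn3, a neurexin, was at 3.79 CPM (18 UMIs) against 28.9 and 24.6 CPM. Between the classes, 12 genes were lower by over 1 than in GFRA1-high and higher by over 1 than in KIT-high cells, and 2 the reverse.

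**Figure D3:**
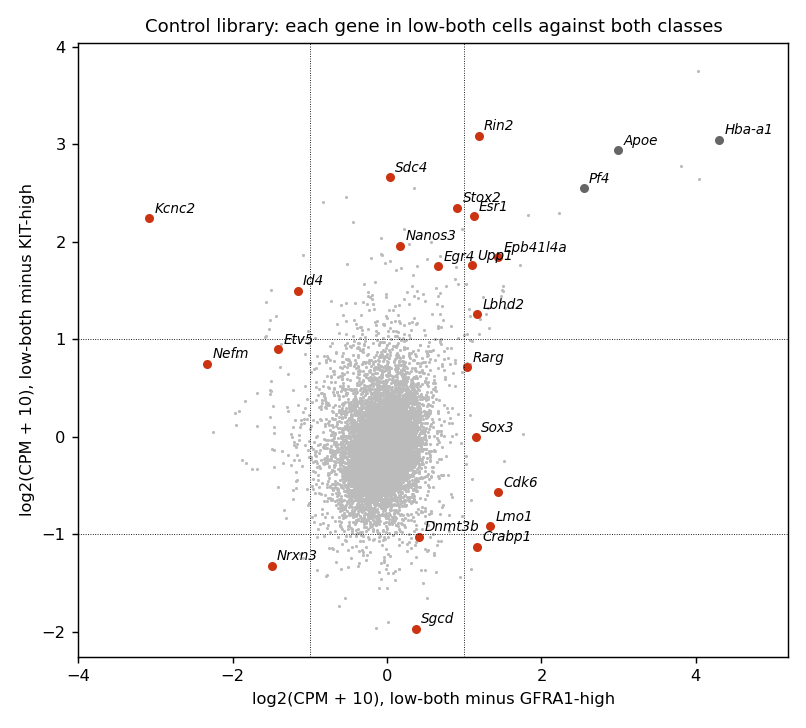
Each point is 1 gene of the control library with at least 50 UMIs in each pair of sums, the rule's genes and mitochondrial genes left out; the x axis is the difference from GFRA1-high cells and the y axis that from KIT-high cells, both on log2(CPM + 10). Dotted lines mark 1 and -1. Rin2, Epb41l4a, Esr1, Lbhd2 and Upp1 lie in the upper right, Kcnc2 at the left, and the grey Hba-a1, Apoe and Pf4 come almost wholly from 2 barcodes.

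Each cell was next placed between the neighbouring classes by a position, the log2 ratio of UMIs of 50 KIT-side genes to those of 50 GFRA1-side genes at 10000 UMIs per cell, the genes chosen as most different between KIT-high and GFRA1-high cells of the control. Among these genes were Cdk6, Crabp1, Lmo1 and Kcnc2, described above. Rin2, Id4, Pmaip1 and Tcl1 were GFRA1-side genes too. Of these, Rin2 was lower and the others higher in Brca1 vKO than in control low-both cells (below), so the position is not independent of those genotype differences. The median of the control was -3.41 in GFRA1-high, -1.72 in low-both (quartiles -2.20 and -0.84) and 2.32 in KIT-high cells. On a scale from 0 at the GFRA1-high to 1 at the KIT-high median, low-both cells were thus at 0.295. A position between these medians was not particular to low-both cells, since control both-high cells had a median of -2.28 (0.198 on the scale). The Brca1 vKO low-both median was -1.95 (0.255 on that scale), beside -3.58 in Brca1 vKO GFRA1-high cells.

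Control low-both cells were not uniform on this scale. Between the upper 10% of GFRA1-high cells (-2.0) and the lower 10% of KIT-high cells (0.154) lay 63 of the 131, whereas 27 (20.6%, 14.0 to 28.6%) lay past the midpoint of -0.54 and thus nearer the KIT-high median. This share was 53.1% (38.3 to 67.5%; 26 of 49) with at most 5% mitochondrial UMIs and 13.0% (7.11 to 21.2%) with at least 20000 UMIs. No Brca1 vKO low-both cell of 13 lay past the midpoint. Brca1 vKO KIT-high cells had a median of -0.23 (0.554 on the scale), with 4 of 7 past the midpoint, against 165 of 175 in the control. The midpoint, set by control cells, was thus passed less often by Brca1 vKO cells of the KIT-high class too. Of control both-high cells, 24 of 74 lay between the same limits and 4 past the midpoint. Within 0.5 of the midpoint were 16 control low-both cells. Above it the control low-both cells thinned out between positions 1 and 2.5, which held 2 cells, and 16 cells lay beyond 2.5. Whether these form a type of their own was not tested.

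The 27 cells past the midpoint had a median of 19657 UMIs and a median mitochondrial share of 2.62%. The other 104 had 38952 UMIs and 5.91%. Of cells under 20000 UMIs 14 of 31 were past the midpoint, and of deeper cells 13 of 100. Of the progenitor genes, Egr4, Nanos3, Upp1 and Neurog3 were lower past the midpoint, and Crabp1, itself a KIT-side gene, was higher, at 503 CPM (450.0 to 561) against 106 CPM (96.4 to 117). Egr4 was at 114 CPM (89.4 to 143) past it and 291 CPM (274 to 308) short of it, Nanos3 at 35.4 CPM (22.4 to 53.1) and 82.0 CPM (73.4 to 91.2), and Upp1 at 13.8 CPM (6.33 to 26.3) and 74.1 CPM (66.0 to 83.0). All 63 Neurog3 UMIs were short of the midpoint (0 of 649965 UMIs past it, which allows up to 4.62 CPM at 3 counts). Sox3 was at 56.9 CPM (40.1 to 78.5) and 72.0 CPM (64.0 to 80.7), and Rarg at 21.5 CPM (11.8 to 36.1) and 32.2 CPM (26.9 to 38.2), each with overlapping intervals. Dmrtb1, a factor of the passage from mitosis to meiosis and itself 1 of the KIT-side genes, was at 100 CPM (77.2 to 127) past and 3.41 CPM (1.87 to 5.73) short of it.

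**Figure D4:**
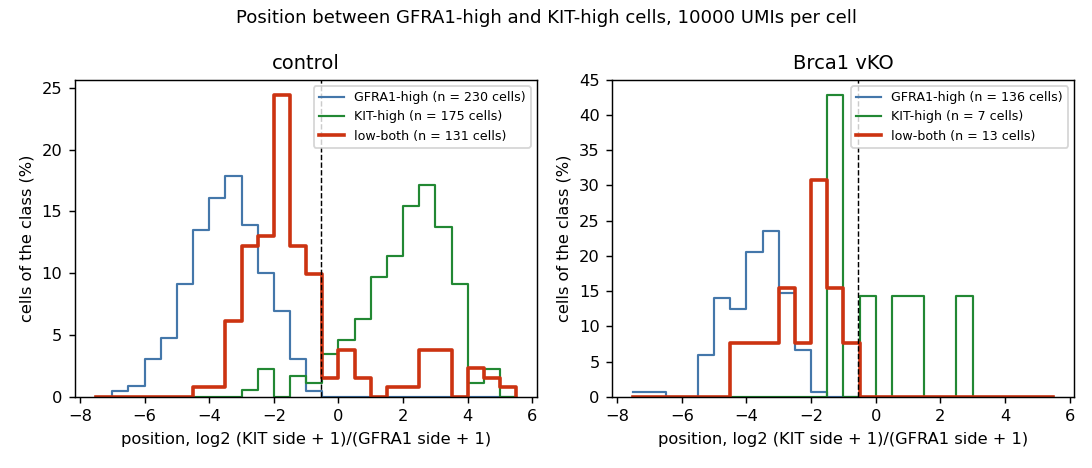
Share of the cells of each class (y axis, %) by position between the classes (x axis, log2 ratio of KIT-side to GFRA1-side UMIs, each plus 1, at 10000 UMIs per cell), control on the left and Brca1 vKO on the right; the dashed line is the midpoint of the control medians, -0.54. Control low-both cells peak between the other classes, with 27 of 131 past the midpoint. None of the 13 Brca1 vKO low-both cells passes it, and 4 of the 7 Brca1 vKO KIT-high cells do.

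The rule has limits of 5 UMIs, and cells on either side of them were set side by side. The 32 control cells with 3 or 4 UMIs of the Gfra1 set, just inside, had Sox3 at 71.9 CPM, Nanos3 at 79.9 CPM, Egr4 at 270.0 CPM, Rarg at 37.6 CPM and Neurog3 at 22.2 CPM, and the 23 with 5 or 6 UMIs, just outside, had 59.0, 78.7, 185, 19.7 and 5.62 CPM. On the other edge, 21 control cells with 3 or 4 UMIs of the Kit set had Sox3 at 57.7, Nanos3 at 30.4, Egr4 at 114, Rarg at 28.8 and Neurog3 at 6.07 CPM, and 13 with 5 or 6 UMIs had 70.4, 37.4, 187, 22.0 and 11.0 CPM.

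Brca1 vKO and control low-both cells were last compared with each other, 13 against 131 cells and 261015 against 4749842 UMIs. Higher in Brca1 vKO by over 1 were 136 of 8859 genes (1.54%) and lower 852 (9.62%), with a median of all genes of -0.15. A gene needed 50 UMIs in both sums together, which the control cells alone could give. With a minimum of 200 UMIs 47 were higher and 364 lower, and with a pseudocount of 50 CPM 23 and 62. Lower genes numbered 395 with a marker limit of 8 UMIs and 324 with the limit set after thinning. For GFRA1-high cells, compared after the data were seen, the counts were 91 and 73 of 12097 (0.752% and 0.603%). All 4 neutrophil genes listed were among the 91, summing to 341 CPM in Brca1 vKO and 1.40 CPM in control GFRA1-high cells. Of their UMIs, the highest thinned Brca1 vKO cell held 306, while the upper quartile was 0. The Brca1 vKO low-both cells were shallower, had a lower median mitochondrial share, had more Sertoli gene UMIs (276 CPM, 216 to 347, against 111 CPM, 102 to 121) and lay nearer the GFRA1 side than the control ones. The part of each in the differences was not tested. Of the 12 Sertoli genes 9 had a UMI in Brca1 vKO low-both cells and 12 in control ones, and the Sertoli sum of GFRA1-high cells was 228 and 133 CPM.

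Of 17 p53 targets compared, 7 were higher by over 1 in Brca1 vKO low-both cells and none lower (1.54% and 9.62% of all genes were). In all 13 of the 17 lay above 0, and the median was 0.82 beside -0.15 over all genes. In GFRA1-high cells 7 of 22 were higher and none lower (0.752% and 0.603% of all genes were), with a median of 0.62 beside -0.02 over all genes. Cdkn1a, which encodes the cyclin-dependent kinase inhibitor p21, was at 9.90 CPM (7.27 to 13.2) in control and 303 CPM (240 to 377) in Brca1 vKO low-both cells, a ratio of 30.6 (21.1 to 44.9). It had a UMI in 32 of 131 control and 13 of 13 Brca1 vKO low-both cells. In GFRA1-high cells Cdkn1a was at 14.5 and 135 CPM, a ratio of 9.35 (7.84 to 11.2), and in Brca1 vKO Sertoli-like cells at 5.91 CPM. Within the Brca1 vKO library it was 2.24 times (1.75 to 2.82) higher in low-both than in GFRA1-high cells, and within the control 0.683 times (0.482 to 0.952). The summed p53 targets of that library were not highest in low-both cells, at 2490 CPM (2302 to 2689). They were at 1806 CPM in GFRA1-high, 1985 CPM in both-high and 3048 CPM (2843 to 3263) in the 7 KIT-high cells.

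Ccng1, the cyclin G1 gene, was at 72.0 CPM (64.6 to 80.1) in control and 521 CPM (437 to 616) in Brca1 vKO low-both cells, and at 37.3 and 233 CPM in GFRA1-high cells. Pmaip1, which encodes the BH3-only protein NOXA, was at 12.2 CPM (9.27 to 15.8) and 126 CPM (87.0 to 178), and Phlda3 at 9.47 and 46.0 CPM. Plk2, Btg2 and Ei24 were the others past 1, at 76.6, 146 and 130 CPM in Brca1 vKO low-both cells. For Plk2 the control low-both level was 16.2 CPM, and GFRA1-high cells had 15.7 and 21.9 CPM. A list of stress genes, early response and heat shock genes that include Btg2, moved with these targets, and its part in them was not tested. Of 18 compared in low-both cells, 13 lay above 0, with a median of 0.40 beside -0.15 over all genes, and 2 were higher by over 1 (Ier2 and Btg2; 1.54% of all genes were) and 1 lower (Hspa1a; 9.62%). Their sum was 4432 CPM (4372 to 4492) in control and 5938 CPM (5646 to 6242) in Brca1 vKO low-both cells, and 4831 and 6002 CPM in GFRA1-high cells, where 17 of 20 lay above 0.

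**Figure D5:**
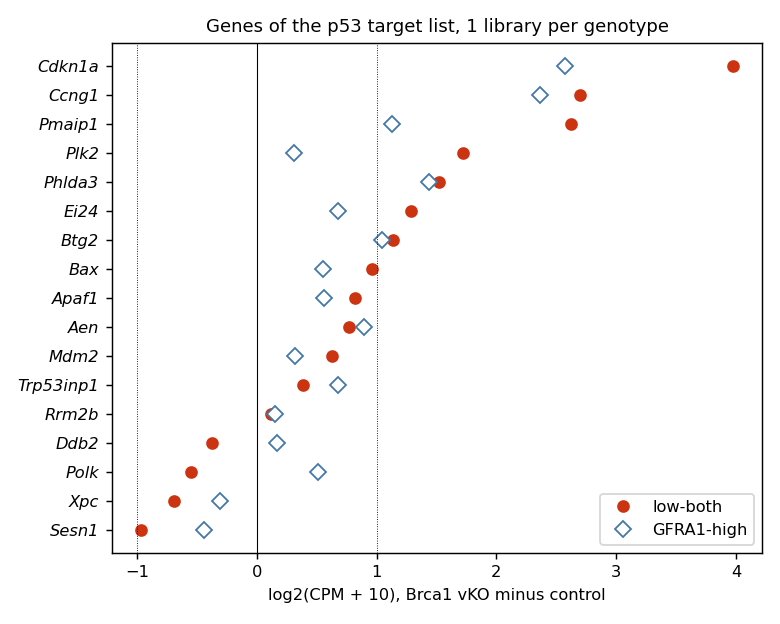
Difference between Brca1 vKO and control on log2(CPM + 10) (x axis) for the 17 genes of the p53 target list compared in low-both cells (red circles), with the same genes in GFRA1-high cells (open blue diamonds); dotted lines mark 1 and -1. In low-both cells 7 genes lie past 1, led by Cdkn1a at 3.97, and none lies past -1.

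Besides p53 targets, Rasgrp2 (272 against 34.7 CPM), Ccnd2 (421 against 74.3 CPM) and Tcl1 (107 against 16.2 CPM) led the genes higher in Brca1 vKO low-both cells. In the control each of these was higher in GFRA1-high than in low-both cells, at 135, 275 and 64.9 CPM. Of 10 stem cell genes compared, Etv4, Id4, Mcam and Pou3f1 were higher by over 1 (1.54% of all genes were) and Tspan8 and Zbtb16 lower (9.62%), with Id4 at 107 CPM (71.3 to 155) against 31.4 CPM.

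Of the 4 progenitor markers, Sox3 and Rarg were lower by over 1 in Brca1 vKO low-both cells (9.62% of all genes were) and Egr4 had a ratio of 1.15 (0.906 to 1.44). The Sox3 ratio was 0.384 (0.153 to 0.799) from 7 UMIs, and the Rarg ratio 0.249 (0.0299 to 0.917) from 2 UMIs in the same cell. All of these UMIs were in the 5 Brca1 vKO low-both cells of at least 20000 UMIs, and the other 8 cells held 0. The intervals cover counting error only, not this spread between cells. The Nanos3 ratio was 0.507 (0.241 to 0.943). In GFRA1-high cells the ratios of Sox3, Rarg and Nanos3 were 0.323 (0.229 to 0.446), 0.477 (0.293 to 0.749) and 0.590 (0.501 to 0.691). Upp1 had a ratio of 0.116 (0.0140 to 0.424) from 2 UMIs in Brca1 vKO low-both cells, and 0.130 (0.0746 to 0.212) in GFRA1-high cells. Sohlh1 was at 95.8 CPM (62.0 to 141) in Brca1 vKO low-both cells against 254 CPM, and the ratio was 0.377 in low-both and 0.372 in GFRA1-high cells. Rin2 was at 34.5 CPM (15.8 to 65.5) against 183 CPM, Stox2 at 26.8 CPM (10.8 to 55.3) against 263 CPM, and Esr1 at 11.5 CPM (2.37 to 33.6) against 73.7 CPM. Homologous recombination genes had none past 1 of 18 compared (1.54% of all genes were higher and 9.62% lower), with a median of -0.32 beside -0.15 over all genes. Of 42 S phase genes, 4 were higher by over 1 (Pcna, Prim1, Uhrf1 and Rfc2; 1.54% of all genes were) and none lower (9.62%), with a median of 0.37 beside -0.15.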

How the data were processed

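The members and gene lists were chosen with earlier results of these data known. According to the submitters' processing notes and methods, the authors made the deposited tables with Cell Ranger 6.0.2 on mm10. The deposited values are raw counts of UMIs per gene and barcode, deposited by the authors without normalization. They include barcodes past the study's limits on genes and mitochondrial share, which were applied here, and whether Cell Ranger's own selection of cells came before is not given in the sources used here. A count can be low because a cell is shallow, so levels are sums over a class per 1000000 UMIs (CPM), and shares of cells were also taken after thinning each cell to 10000 UMIs. Differences are on log2(CPM + 10) for every gene whose 2 sums together reached 50 UMIs, and called means past 1. Ranked genes needed 100 UMIs: the 10 highest and lowest against each class, the 5 above or below both, and the 5 highest and lowest between genotypes. Intervals (exact Clopper-Pearson, Poisson and conditional, 95%, scipy 1.17.1) cover counting error only, and PCR errors in UMIs are not in them. There was 1 mouse per genotype, so no p was computed. Scripts (Python 3.11.15, numpy 2.4.6, Scrublet in scanpy 1.11.5; edgeR 4.0.16 for TMM) were tested on simulated data. Coordinates are GENCODE's on GRCm38, the assembly of mm10.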

Additional observations from a re-analysis of the deposited data

How the results depend on the processing

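No paired analysis was possible because each genotype had 1 library and no replicate numbers. Of 324 values under 20 alternatives, 275 were counted as the same, 49 as moved and 0 as reversed. Values of Sox3 over KIT-high cells that crossed 1 within its interval were counted as the same. The cause of the moves was not tested unless the alternative itself gives it. The marker ratios kept their direction except Sox3 over KIT-high cells, which went from 0.994 to 0.944 at the lowest and 1.08 at the highest, within its interval. The interval of Nanos3 over GFRA1-high cells held 1 without Scrublet-marked cells (0.999 to 1.29) and with a mitochondrial limit of 5% (0.982 to 1.63). It also held 1 without cells under 1% mitochondrial UMIs (0.963 to 1.26). The low-both share of the control was 17.9% with at least 20000 UMIs, 28.6% with at least 5000, 13.0% with a marker limit of 3 UMIs, 31.0% with 8, 28.9% with 2 UMIs after thinning and 25.5% with a mitochondrial limit of 5%. The Brca1 vKO share was 2.72% with at least 20000 UMIs, 12.1% with a limit of 8 UMIs, 3.02% with 1 per 10000 UMIs and 22.2% with the mitochondrial limit of 5%. Their ratio was 0.152 with at least 20000 UMIs and 0.871 with the mitochondrial limit, where 45 Brca1 vKO and 192 control germ cells were left and the interval, 0.393 to 1.74, held 1.

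Sox3 over GFRA1-high cells was 2.15 with a limit of 3 UMIs, 3.34 with 8 and 4.0 after thinning, and Egr4 1.42 with 8 and 1.74 after thinning. Rarg over GFRA1-high cells was 2.0 with 3 UMIs. Over KIT-high cells, Nanos3 was 4.93 after thinning, and Egr4 4.19 with 3 UMIs and 3.27 with the mitochondrial limit. The share past the midpoint was 13.0% with at least 20000 UMIs and 53.1% with the mitochondrial limit.

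Counts of called genes followed the pseudocount. Against GFRA1-high cells, 155 were higher and 493 lower with 1 CPM, and 6 and 20 with 50 CPM. Against KIT-high cells these were 455 and 699, and 35 and 6. Between genotypes they were 273 and 1605, and 23 and 62. With the mitochondrial limit 82 were higher and 425 lower than in GFRA1-high cells, 265 lower than in KIT-high cells and 85 higher in Brca1 vKO. Genes lower than in KIT-high cells numbered 243 with a limit of 3 UMIs, 70 with 8 and 41 after thinning. Genes lower in Brca1 vKO numbered 395 with 8 UMIs, 324 after thinning and 364 with a minimum of 200 UMIs per gene, and genes higher 47 with that minimum and 260 with 1 UMI. Genes higher than in GFRA1-high cells numbered 29 with that minimum, and 29 without the barcodes of any class rich in haemoglobin or macrophage UMIs. That alternative was chosen after seeing the data, like that without cells under 1% mitochondrial UMIs. The 13 Brca1 vKO cells limit every genotype value: 3 UMIs in their sum already amount to 11.5 CPM.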
